A study of Mus musculus with 7 samples.

Results

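Opposite-strand transcripts are genes that the mouse nomenclature names after a neighbor on the other DNA strand, by adding "os" and sometimes a number to that neighbor's symbol. Il1bos, for example, is named after Il1b, which is called its sense gene here. Members were taken by symbol, and a gene was kept when its counts summed over all 7 mice reached 10, whatever the treatment. In total, 127 of the 55450 genes in the count table met this rule. Of the 300 annotated genes with a symbol of this form, 297 were in the table, 93 of them had no count in any mouse and 170 had fewer than 10 counts. The members carried 126 distinct symbols because Tmem147os was listed under 2 identifiers. Erich2os and Snhg7os, at 10 counts, and Arhgap33os, at 11, lay just inside the limit, and 6 genes including Kirrel3os, Nr6a1os and Slfn5os lay just outside it at 9.

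The RNA came from dorsal skin of male C57BL/6 mice aged 24 months, and 1 library was sequenced per mouse. ABT-263, an inhibitor of anti-apoptotic BCL-2 family proteins used to remove senescent cells, was applied topically at 5 µM for 5 days to 3 mice (476, 477 and 478), and DMSO, its vehicle, to 4 mice (480 to 483). In both groups the hair was removed before treatment and the skin was covered with a dressing. Libraries held 20344364 to 43562330 counted read pairs, and the smallest ABT-263 library (27325963) exceeded the largest DMSO library (26824123). Levels are given as CPM, counts scaled to the TMM-normalized size of each library, and differences as ABT-263 against DMSO.

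Transcription from the strand opposite to a gene is common in mammalian genomes. Some opposite-strand transcripts start at the same promoter region as the sense gene and run away from it, which is called divergent. Others run back across the sense gene and can share exon sequence with it. Most encode no known protein, although a few symbols of this form belong to ordinary protein-coding genes that only lie next to the gene they are named after. For a small number, such as transcripts in the Hox clusters, roles in the regulation of the neighboring gene have been described. The label of each member was checked against the annotation (GENCODE M21, GRCm38). Of the 127 members, 126 had a sense gene there, and all 126 lay on its opposite strand. Snhg7os had no annotated sense gene under that symbol. The annotation typed 102 members as antisense, 10 as processed transcripts, 7 as protein coding, 4 as lincRNA, 2 as bidirectional promoter lncRNA, 1 as a unitary pseudogene and 1 as a transcript to be experimentally checked. Wdr83os, Slc7a6os, Cebpzos and Brd3os are among those typed protein coding, and for them the word antisense describes the strand and not the product. Slc7a6os and Brd3os lie apart from their sense genes.

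By position, 50 members overlapped the sense gene at its 5′ end, 28 lay inside its span, 17 were divergent with both starts within 2000 bases, 14 overlapped it at its 3′ end, 6 spanned it whole and 11 lay apart from it. The starts of 31 members lay within 500 bases of the start of the sense gene. Exons of 78 members overlapped sense exons, with a median of 4.7% of the exon bases over all members, and 7 members overlapped by more than 50%. Reads were counted on the same strand as the gene, so a read from a shared exon was assigned by its strand.

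Promoter sequences are shown for pairs whose 2 genes changed differently, Man2c1os with Man2c1 and Il1bos with Il1b, and for Wdr83os, a highly expressed member that fell together with its sense gene. Each window holds 250 bases before and 50 after a RefSeq start on GRCm38.p6, written 5′ to 3′ on the strand of the gene. Motifs were searched on both strands and none contains another. They were the TATA box, written as TATAAA, which positions the start of transcription at some genes, and the CCAAT box, given by its own 5 letters. The GC box bound by Sp1 family factors was searched as GGGCGG. The AP-1 site bound by Jun was searched as TGANTCA, where N is any base. The cAMP response element was searched as TGACGTCA. Capitals mark a match or its reverse complement.
Wdr83os, chr8:85080713-85081012, plus strand: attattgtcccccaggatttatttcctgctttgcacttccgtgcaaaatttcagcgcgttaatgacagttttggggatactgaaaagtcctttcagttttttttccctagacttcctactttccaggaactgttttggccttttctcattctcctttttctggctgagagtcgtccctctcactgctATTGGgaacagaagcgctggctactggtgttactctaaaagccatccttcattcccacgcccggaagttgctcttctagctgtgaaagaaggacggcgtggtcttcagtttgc
Man2c1os, chr9:57131241-57131540, minus strand: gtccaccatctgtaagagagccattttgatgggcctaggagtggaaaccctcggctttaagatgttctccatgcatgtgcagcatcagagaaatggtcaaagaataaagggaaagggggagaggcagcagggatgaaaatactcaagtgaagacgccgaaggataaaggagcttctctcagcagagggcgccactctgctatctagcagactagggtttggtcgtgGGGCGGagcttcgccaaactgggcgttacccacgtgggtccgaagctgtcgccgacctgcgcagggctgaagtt
Man2c1, chr9:57130527-57130826, plus strand: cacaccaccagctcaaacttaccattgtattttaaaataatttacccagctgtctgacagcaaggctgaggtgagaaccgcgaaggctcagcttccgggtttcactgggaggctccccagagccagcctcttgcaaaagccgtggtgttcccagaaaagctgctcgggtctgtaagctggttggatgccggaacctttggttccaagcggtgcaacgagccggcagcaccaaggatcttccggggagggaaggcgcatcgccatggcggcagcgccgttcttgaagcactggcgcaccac
Il1bos, chr2:129369652-129369951, plus strand: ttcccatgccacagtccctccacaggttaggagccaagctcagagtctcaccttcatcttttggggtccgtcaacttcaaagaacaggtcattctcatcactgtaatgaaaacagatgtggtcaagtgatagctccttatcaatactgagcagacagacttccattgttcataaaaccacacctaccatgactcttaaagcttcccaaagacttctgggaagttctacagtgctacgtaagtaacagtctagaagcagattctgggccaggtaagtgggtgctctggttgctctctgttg
Il1b, chr2:129371090-129371389, minus strand: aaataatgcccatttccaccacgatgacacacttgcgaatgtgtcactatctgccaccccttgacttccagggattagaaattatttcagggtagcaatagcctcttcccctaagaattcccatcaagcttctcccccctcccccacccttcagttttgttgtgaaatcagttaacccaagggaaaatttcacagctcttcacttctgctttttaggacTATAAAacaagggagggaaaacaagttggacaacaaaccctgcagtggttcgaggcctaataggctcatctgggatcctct
The Wdr83os window holds a CCAAT box in reverse and shares 284 bases with the Wdr83 window on the other strand. The Man2c1os window holds a GC box, the Man2c1 window holds none of the motifs, and the Il1b window holds a TATA box that the Il1bos window lacks. Il1bos has 2 CG dinucleotides in its window and Il1b has 3, against 13 for Man2c1os and 16 for Man2c1. Such matches describe the letters of these windows only.

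RefSeq windows were matched for 79 member genes and 92 sense genes, and those on chromosome 18 were left out. In 61 pairs with a window for both genes, 18 shared bases. The median number of CG dinucleotides was 10 in the member windows, 19 in those of the sense genes and 7 in all 32851 promoter windows. A GC box was found in 40.4% of member windows, 54.2% of sense windows and 35.7% of all windows. A TATA box was found in 11.1%, 10.8% and 13.6%, and a CCAAT box in 31.3%, 37.5% and 37.4%, in the same order. An AP-1 site was found in 7.07%, 7.5% and 7.81%, and a cAMP response element in 1.01%, 3.33% and 1.79%, again in that order.

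Opposite-strand transcripts were a small share of the RNA. They took 0.0352% to 0.0681% of the counts of a library, and the median member had 120 counts over the 7 mice. Fewer than 100 counts were found for 58 members and at least 1000 for 17. Atcayos and Wdr83os alone held 39.4% of all member counts. Compared per exon length (FPKM), the median member level was 13.9% of that of its sense gene, 32 of 126 members lay above their sense gene and 10 lay under 1% of it. Some sense genes share much of their exon sequence with another gene on the same strand, so their levels are uncertain. Among the sense genes of these 32 members, this was 72.1% of exon bases for Ccdc142, 62.3% for Hoxd3 and 60.0% for Tnfsf13.

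**Figure D1:**
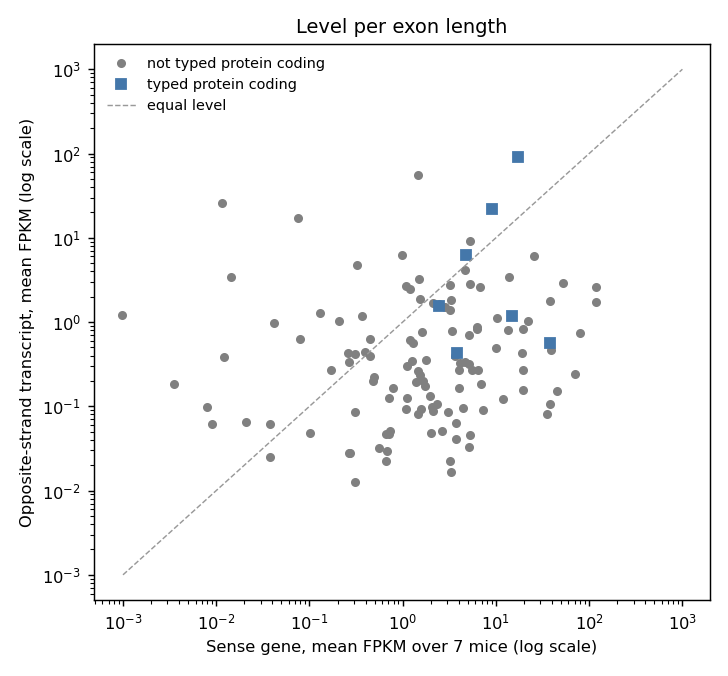
Mean FPKM over the 7 mice of each opposite-strand transcript (vertical) against its sense gene (horizontal), both on log scales, with 1 point per pair where both are above 0. Squares mark members typed protein coding, and the dashed line marks equal levels, above which 32 of 126 members lie.

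The 5 members with the highest mean CPM were Atcayos, Wdr83os, Brip1os, Slc7a6os and Cebpzos. Wdr83os, which encodes a small protein of the endoplasmic reticulum that takes part in membrane protein insertion, had a mean of 90.8 FPKM against 17.1 FPKM for Wdr83. Atcayos had a mean of 25.6 FPKM, whereas its sense gene Atcay, which encodes caytaxin of the nervous system, was at 0.0117 FPKM. Brip1os stood at 4.74 FPKM against 0.323 FPKM for Brip1, a DNA repair helicase. In the other direction, Il1bos had 0.242 FPKM against 71.0 FPKM for Il1b.

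After ABT-263, 10 of the 79 members tested were lower and none was higher at an adjusted p-value under 0.05 (edgeR quasi-likelihood test, two-sided, Benjamini-Hochberg over all 17959 genes tested). Over all genes, 24.2% were called, 12.4% higher and 11.7% lower. The share of members lower, 12.7%, was thus close to the background, and no member was among the higher calls. Of these 10, Frmd8os had passed the expression filter through DMSO libraries only, which leaves 9 without it. Vax2os, still among these 9, was above the filter limit in only 1 ABT-263 mouse. At an unadjusted p-value under 0.05 there were 20 members, 19 lower and 1 higher. The smallest adjusted p-value of a member with a positive difference was 0.0897, for Unc45bos, at a log2 fold change of 1.23. The log2 fold changes ran from -2.48 to 1.39 with a median of -0.29, against 0.00 over all genes tested, and 50 members had a negative and 29 a positive value. All ABT-263 mice lay below all DMSO mice in 16 members (20.3%) and above them in 0. Over all genes the groups did not overlap in 37.1%, with 18.4% lower and 18.7% higher. Leaving out DMSO mouse 483 or ABT-263 mouse 476 left 6 calls among the members and leaving out ABT-263 mouse 478 left 5. In the same 3 fits the calls over all 17959 genes fell to 2029, 2370 and 1802.

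Summed over all 127 members, the level was 520, 642, 657 and 554 CPM in DMSO mice 480 to 483 and 344, 386 and 354 CPM in ABT-263 mice 476 to 478. Without Atcayos and Wdr83os it was 290, 329, 322 and 310 CPM after DMSO and 256, 259 and 253 CPM after ABT-263. The ABT-263 mice were below the DMSO mice in both sums. In bulk tissue, fewer cells of a type and less RNA per cell cannot be told apart. Markers of several cell types moved with the treatment. The 6 neutrophil markers summed to 99.8 to 1820 CPM after DMSO and 5100 to 8320 CPM after ABT-263, with 3 of 5 tested higher. S100a8 and S100a9 made up most of this sum. Retnlg and Ly6g were at 232 and 14 CPM in mouse 476 and at no more than 3.03 and 0.253 CPM in any other mouse. Csf3r was at 78, 12.4 and 10.7 CPM in the ABT-263 mice and at no more than 3.72 CPM after DMSO. All 6 endothelial markers, 4 of 8 macrophage markers and 4 of 8 fibroblast markers were higher, whereas 3 of 9 skeletal muscle markers, 1 of 10 hair follicle markers, 1 of 5 melanocyte markers and 1 of 5 Schwann cell markers were lower. DMSO mouse 481 stood apart, with hair follicle markers summing to 2770 CPM against 39.8 to 49.5 CPM in the other DMSO mice and 5.58, 13.4 and 483 CPM in the ABT-263 mice. Its melanocyte markers summed to 314 CPM against 83.1 to 132 CPM in the other DMSO mice. Among the called members, Srrm4os, Hoxb3os, Vax2os, Foxo6os and Rab26os were also highest in mouse 481. Without that mouse Srrm4os was at -2.06, Hoxb3os at -1.36 and Rab26os at -1.18, and all stayed called. Vax2os at -2.24 and Foxo6os at -0.90 did not pass (edgeR adjusted p = 0.0508 and 0.103). None of the 8 keratinocyte, 8 T cell, 6 adipocyte and 5 smooth muscle markers passed the test. The 8 keratinocyte markers of the labeled tissue were present at 19700 to 68700 CPM in sum, and the skeletal muscle markers at 28500 to 72800 CPM. The part of these cell types in the results that follow was not tested.

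**Figure D2:**
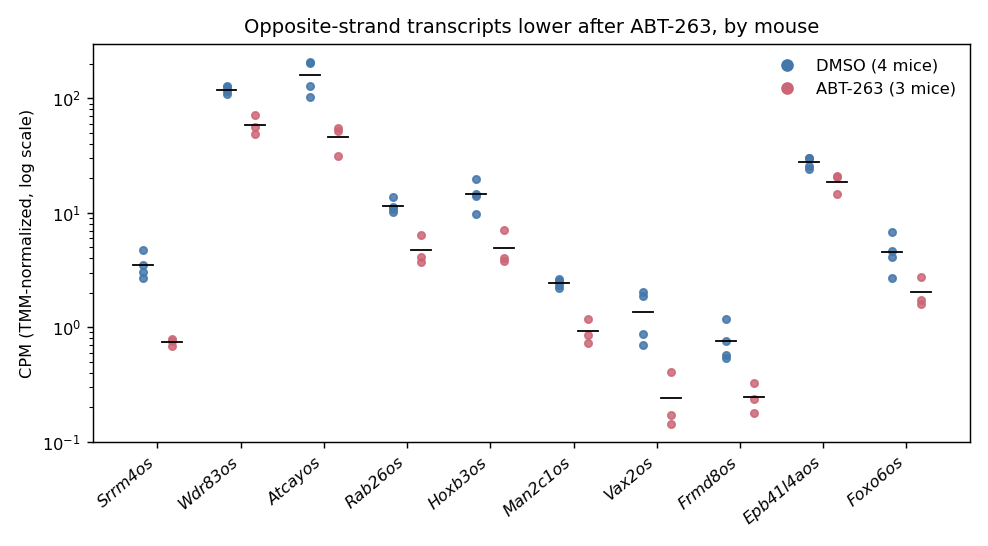
CPM of the 10 opposite-strand transcripts that passed the test, on a log scale, with 1 point per mouse and a black line at each group mean. In all but Foxo6os the 3 ABT-263 mice lie below the 4 DMSO mice.

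Wdr83os and Atcayos, the most abundant members, both fell. Wdr83os (chr8:85080740-85082339, protein coding) was at 126, 109, 128 and 116 CPM in the DMSO mice and at 56.5, 71.9 and 48.8 CPM in the ABT-263 mice. The groups were 120 ± 8.88 and 59.1 ± 11.8 CPM (SD, n = 4 and 3) and did not overlap, with a log2 fold change of -1.02 ± 0.16 (SE, edgeR adjusted p = 0.0077). Its sense gene Wdr83, which encodes a WD repeat protein and overlaps its 5′ end, moved the same way. Wdr83 was at 57.6, 53.6, 58.4 and 61.5 CPM against 29.5, 42.1 and 34.8 CPM, a log2 fold change of -0.70 ± 0.14 (edgeR adjusted p = 0.0145).

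Atcayos (chr10:81194609-81210877, antisense, overlapping the 3′ end of Atcay) was at 103, 205, 208 and 128 CPM after DMSO and at 31.3, 55.5 and 52.1 CPM after ABT-263. It fell by 1.80 ± 0.32 on the log2 scale (edgeR adjusted p = 0.0104), and the lowest DMSO mouse was still above the highest ABT-263 mouse. Atcay itself was at no more than 0.123 CPM in any mouse and was not tested, so the fall of Atcayos could not be set beside a change of its sense gene. The same held for Rab26os (chr17:24528248-24528744, inside the span of Rab26), which was at 10.8, 13.6, 11.2 and 10.2 CPM against 4.11, 6.40 and 3.69 CPM. Rab26os fell by 1.28 ± 0.24 on the log2 scale (edgeR adjusted p = 0.0117). Rab26, a small GTPase of secretory vesicles, lay at or below 0.409 CPM in every mouse and was not tested. Of the exon bases of Rab26os, 15.7% lie on exons of another gene on the same strand.

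Srrm4os (chr5:116438720-116465487, antisense, overlapping the 3′ end of Srrm4) had the smallest adjusted p-value of the members. It was at 3.07, 4.76, 2.67 and 3.53 CPM after DMSO and at 0.679, 0.781 and 0.752 CPM after ABT-263. The log2 fold change was -2.24 ± 0.30 (edgeR adjusted p = 0.00628). Srrm4, a splicing regulator of neuronal microexons, stayed between 0.558 and 0.843 CPM in all 7 mice, and its difference of -0.25 ± 0.34 did not pass the test (edgeR adjusted p = 0.621).

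Man2c1os (chr9:57099950-57131290, antisense) starts 600 bases from the start of Man2c1, which encodes a cytosolic alpha-mannosidase. Its values were 2.66, 2.32, 2.21 and 2.55 CPM after DMSO and 0.858, 0.731 and 1.18 CPM after ABT-263, with little spread in either group. Man2c1os fell by 1.39 ± 0.29 on the log2 scale (edgeR adjusted p = 0.0153). Man2c1 ranged from 36.9 to 50.4 CPM with overlapping groups, at -0.08 ± 0.14 (edgeR adjusted p = 0.71). Their promoter windows, printed above, do not overlap.

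A list of developmental transcription factor genes, set by the start of the symbol, was described next. Vax2 is not on it. Of 15 members named after genes on the list 10 were tested, of which Hoxb3os and Foxo6os were lower and none was higher, with a median log2 fold change of -0.66. Of the 12 tested sense genes 4 were lower, with a median of -0.57. Over all genes 11.7% were lower, the counts here are small, and the list was not tested against other genes. Hoxb3os (chr11:96343072-96354691, antisense, with 53.6% of its exon bases on Hoxb3 exons) was at 9.86, 19.8, 13.9 and 14.7 CPM after DMSO and at 4.04, 7.06 and 3.82 CPM after ABT-263. It fell by 1.55 ± 0.31 on the log2 scale (edgeR adjusted p = 0.0139), while Hoxb3, a homeobox factor of body axis patterning, was at -0.47 ± 0.26 and did not pass (edgeR adjusted p = 0.222). Foxo6os (chr4:120291350-120303892, annotated 4001 bases from the start of Foxo6) was at 4.09, 6.83, 2.72 and 4.60 CPM against 1.61, 1.74 and 2.75 CPM. The groups touched, since ABT-263 mouse 478 lay just above DMSO mouse 482, and the adjusted p-value was 0.0497 at -1.16 ± 0.36 (edgeR). Foxo6, a forkhead factor, fell without overlap from 8.67 to 13.2 CPM to 2.72 to 4.86 CPM, at -1.34 ± 0.27 (edgeR adjusted p = 0.0134).

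The remaining called members were low or changed little. Vax2os (chr6:83692806-83712201, overlapping the 5′ end of the eye-patterning homeobox gene Vax2) was at 0.696, 2.02, 0.873 and 1.89 CPM after DMSO and at 0.143, 0.403 and 0.172 CPM after ABT-263. It had the lowest log2 fold change of all members, -2.48 ± 0.59 (edgeR adjusted p = 0.0231), from only 4, 16 and 8 counts in the ABT-263 mice. Frmd8os (chr19:5845623-5851388, with 63.4% of its exon bases on exons of Frmd8) was at 0.573, 0.758, 1.18 and 0.534 CPM against 0.179, 0.328 and 0.236 CPM, a difference of -1.58 ± 0.47 (edgeR adjusted p = 0.044). It was above the filter limit of 0.373 CPM in DMSO libraries only, so it could enter the test only by being higher there, and with no expression filter it did not pass (edgeR adjusted p = 0.0675). Epb41l4aos (chr18:33794892-33795986, lincRNA) was at 30.4, 25.5, 30.3 and 24.2 CPM after DMSO and at 20.4, 20.9 and 14.5 CPM after ABT-263. Its fall of 0.57 ± 0.17 on the log2 scale was the smallest of the called members (edgeR adjusted p = 0.0457). Epb41l4a, a band 4.1 family protein gene that lies apart from it, was at -0.34 ± 0.25 and did not pass (edgeR adjusted p = 0.335). Leaving out any of the 7 mice in turn ended the calls of Epb41l4aos and Foxo6os, and it ended those of Frmd8os in 6 fits, Vax2os in 4 and Hoxb3os in 1.

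The other abundant members did not pass the test. Brip1os, divergent from Brip1, was at 30.0 ± 3.44 CPM after DMSO and 31.8 ± 0.837 CPM after ABT-263 (SD, n = 4 and 3), a log2 fold change of 0.08 ± 0.13 (edgeR adjusted p = 0.667). Slc7a6os, a protein-coding neighbor of the amino acid transporter gene Slc7a6, was at 27.2 ± 2.90 and 24.5 ± 1.70 CPM, and Cebpzos was at 27.9 ± 5.02 and 21.6 ± 0.834 CPM. These differences of -0.15 and -0.37 on the log2 scale had edgeR adjusted p-values of 0.43 and 0.133.

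By position, none of the 12 divergent members tested was called, with a median log2 fold change of -0.15. Among the members overlapping the 3′ end of the sense gene 4 of 12 were lower (Srrm4os, Atcayos, Hoxb3os and Frmd8os), with a median of -0.76. Frmd8os was above the filter limit in DMSO libraries only, so its lower call was favored by how it entered the test. The 5′ overlapping members had 3 lower of 30 and a median of -0.29, and those inside the sense span had 1 lower of 13 and a median of 0.00. Of the 9 members that lay apart, 2 were lower with a median of -0.15, and none of the 3 that spanned the sense gene was called, at a median of -1.28. These counts stand against 11.7% lower over all genes and 15.0% lower over noncoding genes other than the members. Differences between the positions were not tested. By type, 1 of 7 protein-coding members and 9 of the 72 other tested members were lower.

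**Figure D3:**
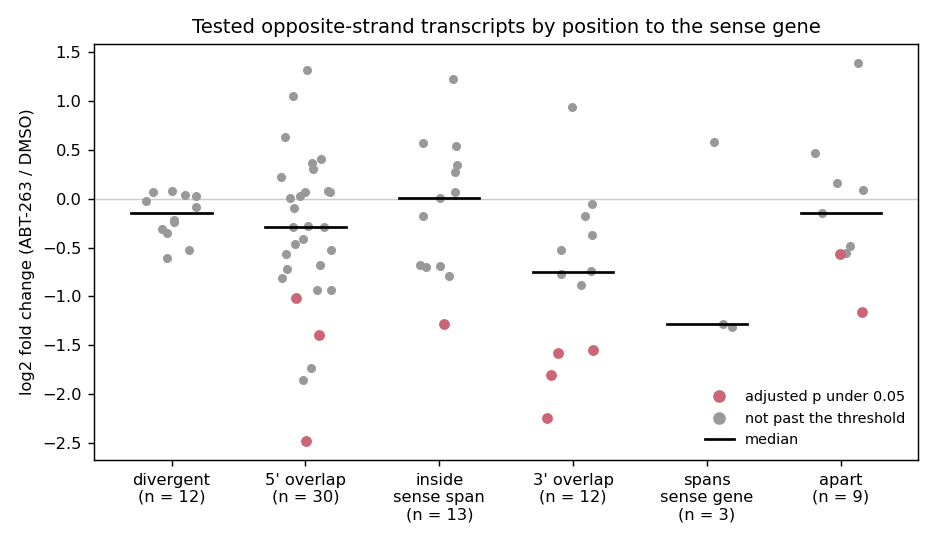
Log2 fold change (ABT-263 over DMSO) of the 79 tested opposite-strand transcripts, grouped by position relative to the sense gene. Red points passed the test and black lines mark medians, which run from -1.28 for transcripts spanning the sense gene to 0.00 for those inside it, and sideways scatter has no meaning.

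Other noncoding genes also had negative medians. Of 1209 tested noncoding genes other than the members, 181 (15.0%) were lower and 19 (1.57%) higher, with a median log2 fold change of -0.45. The 366 other genes typed antisense had 36 lower, 7 higher and a median of -0.40. Protein-coding genes were higher in 12.9% and lower in 10.3%, with a median of 0.04. Genes named with "as" in place of "os" were few, with 3 of 5 tested and none called. Of these 5 symbols, Hras and Vipas39 match by spelling only.

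The sense genes were called in both directions, at a share near that of all genes. The members were named after 122 distinct sense symbols, of which Snhg7 had no annotated gene. Of these sense genes 110 were tested, 15 were higher and 15 lower (27.3% called against 24.2% of all genes), and the median log2 fold change was 0.16. In the 74 pairs with both genes tested, 22 had both values negative, 20 both positive, 24 a negative member with a positive sense gene and 8 the reverse. Values had the same sign in 56.8% of these pairs and in 54.0% of all 3269 opposite-strand pairs tested. Both genes were called in 2 pairs, those of Wdr83os and Foxo6os, and both fell in each. The member alone was called in 6 pairs, the sense gene alone in 21 and neither in 45. These counts stand against 24.2% of all genes called, and they were not made over all opposite-strand pairs. The sense count of 30 fell to 18, 8, 11, 13 and 9 without mouse 481, 482, 483, 476 or 478. In the same fits the share called over all genes fell to 15.6%, 9.81%, 11.3%, 13.2% and 10%.

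Where the sense gene was higher, the tested member was not called in any of 11 cases, at a median log2 fold change of 0.03. Where the sense gene was lower, the member was lower in 2 of 12 cases, at a median of -0.42. Over all genes 24.2% were called and 11.7% were lower. The counts here are small, and the same split was not made over all opposite-strand pairs. Among the higher sense genes, Ptgs2, Jun and Has2 are described here with 4 members named after them, chosen after their values were seen. Ptgs2, which encodes cyclooxygenase 2, was at 1.23, 3.54, 2.16 and 4.93 CPM after DMSO and at 126, 20.1 and 5.99 CPM in the ABT-263 mice, with a log2 difference of 4.09 ± 1.01 (edgeR adjusted p = 0.0286). Ptgs2os2, which lies apart from Ptgs2, was at 0.327, 0.126, 0.667 and 0.205 CPM against 1.39, 0.655 and 0.558 CPM, which overlapped, at 1.39 ± 0.61 (edgeR adjusted p = 0.128). Ptgs2os, whose promoter window shares 256 bases with that of Ptgs2, had 7, 4, 2 and 1 counts after DMSO and 6, 7 and 0 after ABT-263 and was not tested. Jun, a subunit of AP-1, rose by 0.67 ± 0.13 (edgeR adjusted p = 0.0132), whereas Junos was at -0.29 ± 0.31 (edgeR adjusted p = 0.514). Has2, a hyaluronan synthase, rose by 1.79 ± 0.55 (edgeR adjusted p = 0.048), and Has2os was at 0.37 ± 0.40 (edgeR adjusted p = 0.522).

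**Figure D4:**
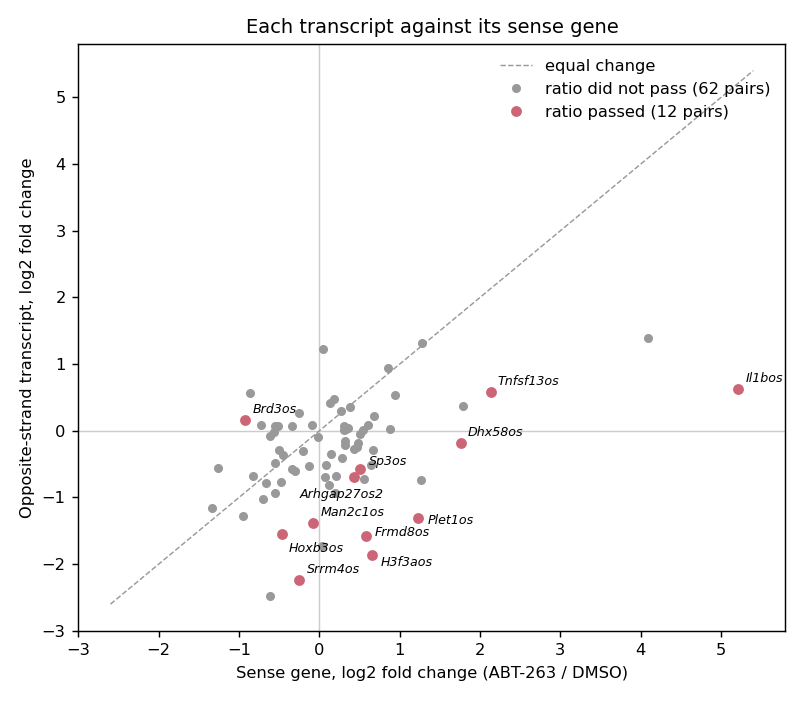
Log2 fold change of each opposite-strand transcript (vertical) against that of its sense gene (horizontal) for the 74 pairs with both tested. Red points are the 12 pairs whose ratio passed the test, of which 11 lie below the dashed line of equal change and Brd3os lies above it.

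The change of a member relative to its sense gene was tested within the mice. For every pair the log2 ratio of the member to its sense gene was compared between treatments (limma, weighted, adjusted over all 3269 opposite-strand pairs). The ratio differed in 12 of 74 member pairs (16.2%), 11 lower and 1 higher, against 22.4% of all opposite-strand pairs and 22.6% of those other than the members. The median difference was -0.31, with 53 negative and 21 positive. The other opposite-strand pairs were not ordered by gene type, so these directions have no background here. As given above, the median log2 fold change was -0.45 for noncoding genes other than the members and 0.04 for protein-coding genes. The ratios of the 2 groups did not overlap in 22 member pairs (29.7%), against 33.8% of all pairs. Without H3f3aos and Frmd8os, which were above the filter limit in DMSO libraries only, there were 10 such pairs, 9 of them lower. Of the 12 pairs, 4 had a member that was itself called lower, and 8 had a sense gene with a positive difference. Leaving out DMSO mouse 482 left 7 of the ratio calls and leaving out ABT-263 mouse 478 left 5. Over all 3269 pairs the 733 ratio calls fell to 396 and 292 in these fits. The ratio calls of Il1bos, Arhgap27os2, Man2c1os, Plet1os and Srrm4os held whichever of the 7 mice was left out. Those of the other pairs were lost in 6 of these 7 fits for Tnfsf13os, and in 5 each for Brd3os and Dhx58os. They were lost in 4 fits for Hoxb3os, 2 for Sp3os and 1 each for H3f3aos and Frmd8os. With libraries thinned to the smallest, Tnfsf13os, Brd3os and Hoxb3os did not pass (limma adjusted p = 0.0583, 0.0787 and 0.0656). For single pairs, an exact permutation test over the 35 splits of the 7 mice cannot give less than p = 0.0286. That smallest p-value was reached by all 12 pairs except Plet1os, Frmd8os and Hoxb3os, at p = 0.0571 (exact, two-sided, not adjusted). These pairs had been chosen by the limma test in the same mice, so these p-values are no further support.

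**Figure D5:**
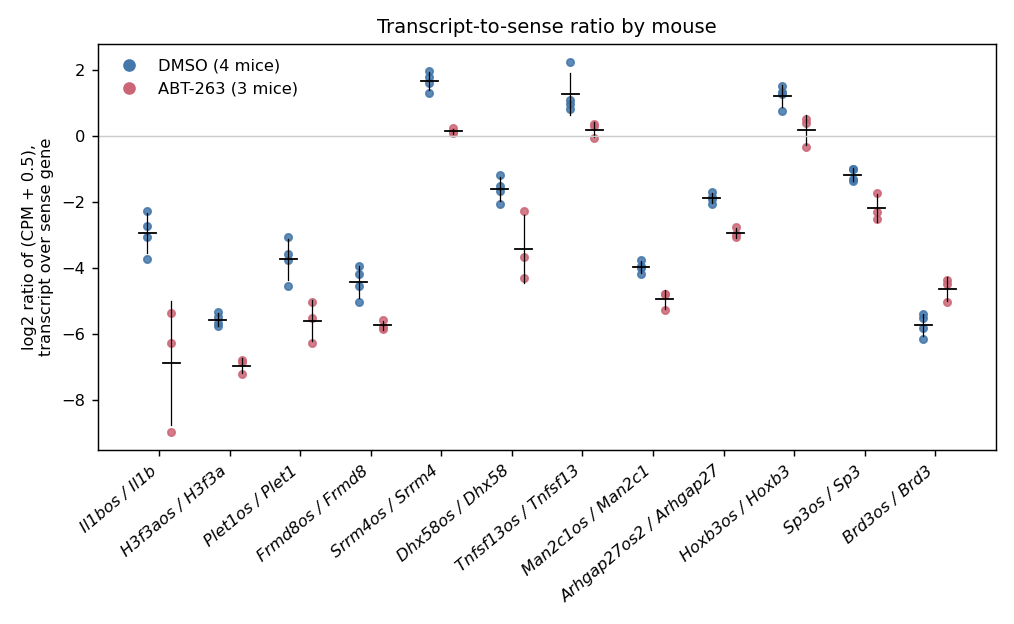
Log2 ratio of CPM + 0.5 of opposite-strand transcript over sense gene in each mouse for the 12 pairs whose ratio passed the test, with black marks for group mean and SD. Pairs are ordered by the limma difference, from Il1bos at -3.67 to Brd3os at 1.14, the only one of these 12 pairs with a higher ratio after ABT-263.

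Il1bos and Il1b differed most. Il1b, the proinflammatory cytokine interleukin 1 beta, was at 5.12, 12.1, 5.80 and 9.86 CPM after DMSO and at 736, 140 and 38.5 CPM in the ABT-263 mice, with a log2 difference of 5.21 ± 0.97 (edgeR adjusted p = 0.0132). Il1bos (chr2:129369897-129375748, antisense, across the 5′ end of Il1b) was at 0.655, 0.464, 0.462 and 0.740 CPM against 0.965, 1.31 and 0.451 CPM. The Il1bos groups overlapped, and its difference of 0.63 ± 0.46 did not pass (edgeR adjusted p = 0.331). For every 100 read pairs of Il1b there were thus 12.8, 3.83, 7.96 and 7.50 of Il1bos after DMSO and 0.131, 0.935 and 1.17 after ABT-263. The ratio was lower by -3.67 ± 0.77 on the log2 scale (limma adjusted p = 0.00978). Without each mouse in turn it lay between -4.29 and -2.83. The summed neutrophil markers given above were higher in the same mice, mostly through S100a8 and S100a9, whereas Retnlg and Ly6g were high in mouse 476 only. Their part in the Il1b values was not tested.

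In 3 further pairs the sense gene rose and the member was not called by the edgeR test above. Plet1, a surface protein gene of epithelial progenitors, was at 27.5, 19.8, 28.9 and 20.4 CPM after DMSO and at 95.5, 41.8 and 32.5 CPM after ABT-263 (log2 fold change 1.23 ± 0.36, edgeR adjusted p = 0.0429). Plet1os, which spans Plet1, was at 0.696, 1.94, 1.69 and 1.27 CPM against 0.751, 0.428 and 0.516 CPM, and its ratio differed by -2.27 ± 0.51 (limma adjusted p = 0.0123). The Plet1os groups overlapped at a single mouse of each treatment. The DESeq2 Wald test called Plet1os lower, at a log2 fold change of -1.30 (adjusted p = 0.0318). So did edgeR when at least 10 counts were required in every library (adjusted p = 0.0473). Dhx58, a cytosolic sensor of viral RNA, was at 10.1, 2.36, 5.29 and 3.98 CPM against 30.8, 10.2 and 14.5 CPM, a rise of 1.76 ± 0.53 (edgeR adjusted p = 0.0481). Dhx58os lay between 0.687 and 2.09 CPM over all mice, with a ratio difference of -1.94 ± 0.54 (limma adjusted p = 0.0286). Tnfsf13, which encodes the B cell cytokine APRIL, was at 1.31, 0.421, 0.257 and 0.904 CPM against 4.40, 1.99 and 3.27 CPM, a rise of 2.13 ± 0.53 (edgeR adjusted p = 0.0266). Of its exon bases 60.0% lie on same-strand exons of another gene, so its counts and the ratio are uncertain. Tnfsf13os was at 3.40, 1.14, 3.08 and 2.26 CPM against 4.18, 2.72 and 4.15 CPM, with a ratio difference of -1.56 ± 0.50 (limma adjusted p = 0.0444).

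In 3 pairs, those of H3f3aos, Sp3os and Arhgap27os2, the ratio passed although neither gene was called by the edgeR test above. The DESeq2 Wald test called Sp3os (adjusted p = 0.0286) and H3f3aos (adjusted p = 0.0343) lower. With at least 10 counts required in every library, edgeR also called Sp3os lower (adjusted p = 0.0493). So did edgeR with thinned libraries (adjusted p = 0.0433). Without DMSO mouse 480, edgeR called H3f3aos lower (adjusted p = 0.037). H3f3aos, which starts 167 bases from the start of the histone H3 gene H3f3a, was at 0.286, 1.22, 0.616 and 0.657 CPM after DMSO and at 0.286, 0.101 and 0.193 CPM after ABT-263. H3f3a was at 42.0, 75.6, 56.5 and 46.5 CPM against 90.7, 66.4 and 102 CPM, and the ratio differed by -2.44 ± 0.53 (limma adjusted p = 0.0112). H3f3aos was above the filter limit in DMSO libraries only, so this lower ratio was favored by how it entered the test. Reads of H3f3aos were 0.682 to 1.62 for every 100 of H3f3a after DMSO and 0.152 to 0.315 after ABT-263, and the ranges were apart. Sp3os, opposite the zinc finger factor gene Sp3, was at 8.63, 9.40, 11.7 and 8.34 CPM against 6.61, 6.40 and 6.14 CPM, and its ratio to Sp3 differed by -1.04 ± 0.25 (limma adjusted p = 0.0169). Arhgap27os2, with 75.9% of its exon bases on exons of the GTPase activator gene Arhgap27, had 22.9, 24.4, 25.9 and 28.6 read pairs for every 100 of Arhgap27 after DMSO and 10.6, 13.3 and 10.1 after ABT-263. Its ratio differed by -1.17 ± 0.25 (limma adjusted p = 0.0102) with little spread, while the CPM of Arhgap27os2 and of Arhgap27 each overlapped between the groups.

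In Srrm4os, Man2c1os and Hoxb3os the ratio fell with the member. Srrm4os had 469, 565, 347 and 538 read pairs for every 100 of Srrm4 after DMSO and 112, 115 and 135 after ABT-263, a difference of -1.95 ± 0.46 (limma adjusted p = 0.0149). Man2c1os had 5.28, 4.59, 5.34 and 6.27 for every 100 of Man2c1 against 2.33, 1.55 and 2.59, a difference of -1.33 ± 0.33 (limma adjusted p = 0.0169). Hoxb3os had 176, 265, 308 and 256 for every 100 of Hoxb3 against 136, 148 and 78.1, a difference of -1.10 ± 0.32 (limma adjusted p = 0.0327). In all 3 pairs every ABT-263 mouse had a lower ratio than every DMSO mouse. For Frmd8os, whose values are given above, the sense gene lay the other way. Frmd8, a FERM domain protein gene, was at 34.9, 22.4, 25.2 and 23.5 CPM against 38.6, 45.0 and 34.8 CPM. The Frmd8 groups overlapped only at DMSO mouse 480 and ABT-263 mouse 478, and the ratio differed by -2.09 ± 0.52 (limma adjusted p = 0.0179), with the same limit on how Frmd8os entered the test.

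Brd3os was the only member whose ratio passed the test as higher, of 21 with a positive difference. Brd3, a bromodomain protein gene, was at 128, 146, 140 and 130 CPM after DMSO and at 68.3, 86.3 and 61.1 CPM after ABT-263, a fall of 0.92 ± 0.15 on the log2 scale (edgeR adjusted p = 0.00836). Brd3os, which is typed protein coding and lies apart from Brd3, was at 1.31, 2.70, 2.00 and 2.59 CPM against 2.57, 2.14 and 2.51 CPM. Its groups overlapped, and the ratio differed by 1.14 ± 0.33 (limma adjusted p = 0.0323). By contrast, the ratio of Wdr83os to Wdr83 differed by -0.31 ± 0.18 and that of Foxo6os to Foxo6 by 0.22 ± 0.33, and neither passed (limma adjusted p = 0.224 and 0.678). Epb41l4aos had a ratio difference of -0.22 ± 0.27 (limma adjusted p = 0.611).

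The 48 members that were not tested had at most 102 counts over the 7 mice. Of these, 32 had no count in at least 1 mouse, and the highest level in any mouse was 2.44 CPM. Of the 79 tested, 76 were above the filter limit of 0.373 CPM in at least 1 library of each group, 3 only in DMSO libraries and 0 only in ABT-263 libraries. In every library 52 were above it. A member that rose from near 0 could therefore be missed. With all 127 members in the fit, 8 were called, 7 lower and 1 higher, against 16.0% of 23369 genes, 7.30% lower and 8.67% higher. The 1 higher was Gimap1os, named here after its values were seen, on the strand opposite to a GTPase gene of lymphocytes. Gimap1os had 0, 0, 0 and 1 counts in the DMSO mice and 17, 8 and 12 in the ABT-263 mice (edgeR adjusted p = 0.0272 in that fit). Scaled to library size this was a ratio of 29.8, with an exact 95% interval of 5.03 to 1210 that covers counting error only. Gimap1 was at 8.35, 4.59, 5.90 and 5.30 CPM against 14.7, 9.91 and 8.46 CPM, which did not overlap, at a log2 fold change of 0.87 ± 0.27 (edgeR adjusted p = 0.0509).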

How the data were processed

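RNA labeled as polyadenylated from dorsal skin of 4 DMSO- and 3 ABT-263-treated mice was sequenced in bulk, with 1 library per mouse. Per the study's methods and the labels, the authors aligned reads to mm10 with STAR 2.7.9a and counted uniquely aligned proper pairs on the same strand per Ensembl gene with featureCounts (Subread 1.6.2) except for mitochondrial genes. The deposited values are raw counts. A second deposited table, of variance-stabilized values, was not used. Read-pair counts per library were 20344364 to 43562330, and the median member had 120 counts over the 7 mice.

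Gene positions, types and exons came from GENCODE M21 (GRCm38), which is not the Ensembl release the authors name and held 55190 of 55450 identifiers. As a check of strand, 485 genes had at least 99% of their exon bases on opposite-strand exons, and 107 of these had at least 10 counts.

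Counts were tested in R 4.3.3 with edgeR 4.0.16 (TMM, filterByExpr, robust quasi-likelihood test). The SE of an edgeR log2 fold change was derived from the test, as its absolute value divided by the square root of the F statistic. Ratios were tested with limma 3.58.1 on voom values of every tested opposite-strand pair that overlaps or has starts within 2000 bases, with the named pairs added. Exact permutation tests used log2(CPM + 0.5). The threshold was an adjusted p-value of 0.05, and the scripts were tested on simulated data. FPKM is CPM per kilobase of merged exon. Named genes are members past either test, the 5 with the highest mean CPM, Epb41l4aos, those at the limit of 10 counts, and the sense genes of all these. The members and lists were chosen with earlier results of these data known. Alternatives were the Wald test of DESeq2 1.42.0, its size factors, other filters, thinned counts, unweighted ratios with 0.5 or 0.1 CPM added, and leaving out each mouse.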

Additional observations from a re-analysis of the deposited data

How the results depend on the processing

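The DESeq2 Wald test called 17 members, 16 lower and 1 higher, of 117 tested, where edgeR called 10 of 79, and all 10 were among the 17. Over all genes these tests called 26.8% and 24.2%. Other filters, size factors and thinned libraries gave 8 to 10 member calls, 22 to 33 sense gene calls (DESeq2 included) and, with the unweighted ratios, 9 to 15 ratio calls. Leaving out each mouse in turn gave 5 to 14 called members, 8 to 32 sense genes and 5 to 17 ratios. Calls over all genes ran from 9.81% to 23.5% in these fits, and ratio calls from 292 to 755 of all 3269 opposite-strand pairs. In these fits the only member called higher was Ppp1r18os, without DMSO mouse 481, and Atcayos, Wdr83os, Srrm4os, Man2c1os and Rab26os stayed called lower in all 7. The named pair Frmd8os reached the smallest permutation p-value (0.0286) with 0.1 CPM added, at -1.86, against 0.0571 at -1.31 with 0.5 CPM. No value reversed its direction. Of the alternatives for single members, 123 log2 fold changes and 112 ratio differences kept their side of the threshold, 30 and 28 lost it, and 1 log2 fold change gained it. The causes were not tested. Size factors of DESeq2 shifted the median of all genes by 0.0049 on the log2 scale. No paired analysis was possible because the mice of the 2 groups share no number. Fewer than 100 counts in all were found for 58 of 127 members, and a poly(A) library leaves out transcripts without a tail.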
